A study of Rattus norvegicus with 6 samples.

Results

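Transcripts of the proteasome were examined in RK3E cells and in RK3E cells transformed by GLI1. RK3E is a line of rat kidney epithelium that carries adenovirus E1A, and GLI1 is a zinc finger transcription factor that acts downstream of Hedgehog signalling. Genes were taken where a probe set was annotated to exactly 1 symbol that starts with Psma, Psmb, Psmc, Psmd or Psme and a digit. The interferon-inducible catalytic genes Psmb8, Psmb9 and Psmb10 were kept apart. The rule gave 38 genes of 14217 with a symbol, measured by 52 probe sets. For each gene the probe set with the highest mean log2 signal was used. Of the 38, Psmc3ip and Psme3ip1 share the name pattern but encode binding partners and no subunit, so that 36 genes are counted below. Probe sets for Psmb6 and Psme3 carried several symbols, as did 1 of the probe sets for Psma3, and these were left out.

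The 6 1-colour Affymetrix arrays held 4 of GLI1-transformed cells and 2 of parental RK3E cells, all grown in DMEM with serum. For the GLI1 lines, cells were transfected with a GLI1 expression construct, and single foci of transformed cells were picked and kept as lines. The labels of the parental arrays repeat that protocol, and whether parental cells were mock-transfected is not said. Of the GLI1 arrays, 1 came from clone I, 2 from clone II, and 1, called the unnamed array below, has no clone in its label. Tests of GLI1 against parental cells count the 2 clone II arrays as separate units although they share a clone. Their errors and p-values therefore overstate the number of GLI1 lines. The labels call the arrays biological replicates without saying how the cultures were separated, so that p-values reflect the spread among these arrays, which may be technical. Each value is the log2 of a probe set's signal, and the small number of arrays limits every comparison.

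The Gli1 probe set, read first as a check of the labels, gave log2 signals of 13.15 on the unnamed array, 11.71 for clone I, 11.77 and 12.17 for clone II, and 5.17 and 6.50 for parental cells. Of 7 epithelial markers 4 passed the signal filter (Krt8, Cldn1, Dsp and Epcam), while Krt18, Krt19 and Cdh1 lay below it. Of 6 kidney tubule markers, Lrp2 and Aqp1 passed. No endothelial or immune marker with a probe set passed (0 of 3 each). Of 6 mesenchymal markers 5 passed. The summed signal of all 6 ran from 16625 to 36394 on the GLI1 arrays against 233333 to 236754 on the parental arrays. Col1a1, Col1a2, Col3a1 and Vim were lower, while Pdgfra differed by -0.06. The epithelial sum, to which Dsp gave the largest part, ran from 11126 to 20555 against 22339 to 22999. Dsp was lower and Cldn1 higher on every GLI1 array. Krt8 and Epcam differed between the GLI1 lines. Against parental cells, Krt8 differed by 2.07 on the unnamed and clone I arrays together and by -1.09 in clone II. For Epcam these differences were 2.15 and 0.14. The kidney sum ran from 1927 to 2388 against 2767 to 2940. The part of these differences in the results below was not tested. In RNA from whole cultures, fewer cells of a kind and less RNA per cell cannot be told apart.

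The proteasome is the main protease that degrades ubiquitin-tagged proteins in the cytosol and nucleus. Its barrel-shaped 20S core is a stack of alpha rings, which gate the entry, around beta rings, which hold the cutting sites. The 19S cap docks on the barrel: a base of ATPases unfolds the substrate, and a lid removes the ubiquitin chain. Other activators, among them PA28 (Psme1 and Psme2) and PA200 (Psme4), can bind the core in place of the cap. Cells adjust these genes jointly, chiefly through the transcription factor NFE2L1, which binds antioxidant response elements in their promoters.

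Promoters of 3 genes are shown because they carry the letters searched for and belong to genes described below: Psmb2 with both motifs, Psmb3 with CCAAT boxes alone, and Psma3, the one gene lower on every GLI1 array. They were chosen after the values were seen. Each stretch is the 250 bases before the gene start in RefSeq, build GRCr8, plus strand, 5′ to 3′, and capitals mark matches on either strand to TGACNNNGC (the core of the antioxidant response element) or CCAAT (the NF-Y box). In Psmb2 the motifs overlap by a base.
Psmb2, chr5:144254808-144255057: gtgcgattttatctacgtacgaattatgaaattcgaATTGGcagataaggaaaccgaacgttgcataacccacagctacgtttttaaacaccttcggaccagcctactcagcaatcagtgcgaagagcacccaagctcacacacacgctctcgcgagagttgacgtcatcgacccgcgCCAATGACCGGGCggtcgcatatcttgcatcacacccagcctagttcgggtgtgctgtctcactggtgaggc
Psmb3, chr10:83193537-83193786: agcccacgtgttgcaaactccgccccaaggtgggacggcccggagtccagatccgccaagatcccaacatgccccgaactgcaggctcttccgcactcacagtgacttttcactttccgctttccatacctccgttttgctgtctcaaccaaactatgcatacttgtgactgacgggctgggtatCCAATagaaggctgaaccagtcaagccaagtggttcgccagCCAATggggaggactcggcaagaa
Psma3, chr6:95219499-95219748: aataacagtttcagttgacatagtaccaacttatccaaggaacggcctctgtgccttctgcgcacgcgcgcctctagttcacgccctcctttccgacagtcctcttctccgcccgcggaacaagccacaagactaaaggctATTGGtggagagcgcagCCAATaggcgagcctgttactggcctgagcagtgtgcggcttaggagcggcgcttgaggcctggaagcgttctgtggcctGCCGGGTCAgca

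Of the 36 genes, 32 had a window in the RefSeq promoter table. Within 300 bases (250 before and 50 after the start), TGACNNNGC occurred in 7 of these 32 promoters (21.9%) and in 12.2% of 27457 rat promoters. The genes were Psma3, Psmb2, Psmb5, Psmd1, Psmd3, Psmd9 and Psme4. CCAAT occurred in 16 of the 32 and in 37.7% of all. These are matches of letters and were not tested as binding sites.

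In GLI1-transformed against parental cells, no proteasome gene passed the test. Most of the 36 were slightly higher in the GLI1 cells: 29 had a positive log2 difference and 7 a negative one, with a median of 0.29, from -0.51 for Psma3 to 1.04 for Psme2. Over all 18625 tested probe sets, 50.3% were positive and the median was 0.005. Among the 8189 of these at least as bright as the dimmest proteasome gene (mean log2 signal 11.39), 57.6% were positive and the median was 0.097. With limma and a Benjamini-Hochberg threshold of 0.05, 0 of 36 rose and 0 fell, where 5.84% of all tested probe sets rose and 7.25% fell. At an unadjusted p under 0.05, 9 of 36 were higher and 1 was lower. At that level 14.2% of all tested probe sets and 20.7% of those at least as bright were higher. Lower were 2738 of the 18625 and 1237 of the 8189. Adjusted p-values of the 36 ran from 0.0933 to 0.999. The 95% interval of the difference lay within a 2-fold change either way for 25 of 36 genes, and for all 36 it excluded a 2-fold fall. An interval within 2-fold was found for 44.2% of all tested probe sets and 61.8% of those at least as bright. A 2-fold fall was excluded for 12795 of the 18625 and 6764 of the 8189.

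**Figure D1:**
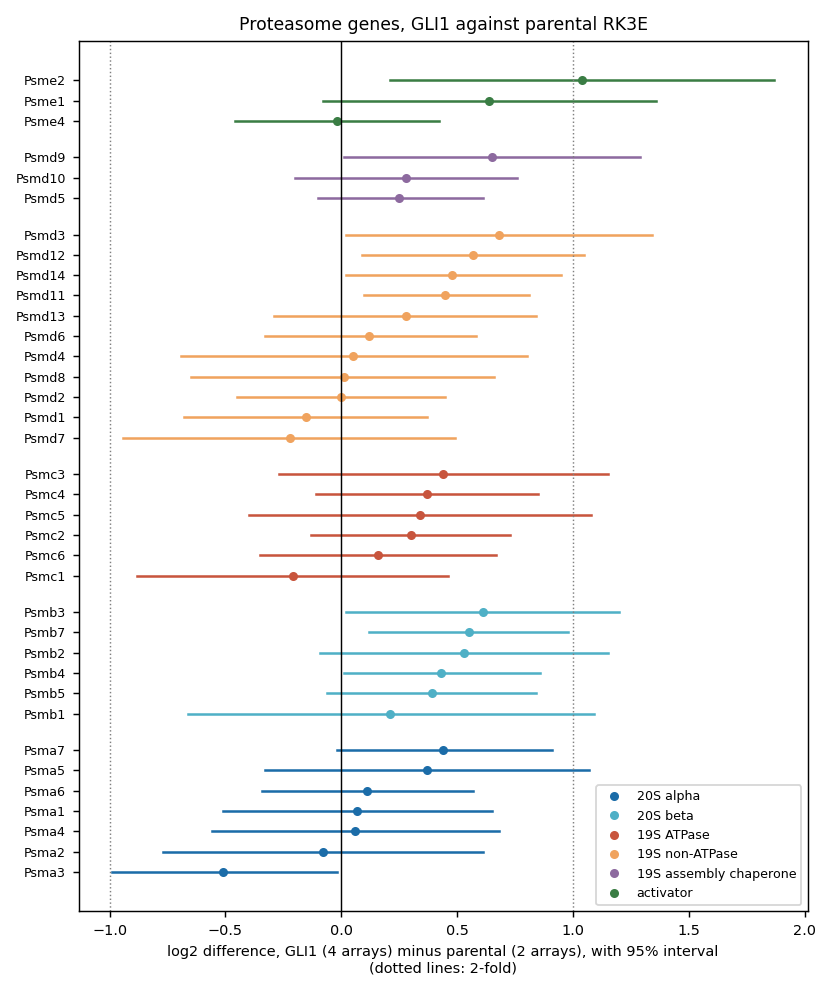
Log2 difference, GLI1 (4 arrays) minus parental (2 arrays), for each of the 36 proteasome genes, with the 95% interval from limma as a line and dotted lines at a 2-fold change, coloured by role. Most points lie to the right of 0, all 6 beta-ring genes among them, and Psme2 lies farthest right at 1.04.

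The arrays within a group differed by as much as the groups did. For each gene the log2 signal was set against that gene's own mean over the 6 arrays, and the median over the 36 genes was then taken on each array. It was -0.25 on the unnamed array and 0.33 for clone I. Clone II gave -0.02 for replicate 1 and 0.28 for replicate 2, and parental cells gave -0.36 for replicate 1 and -0.02 for replicate 2. Thus the unnamed array lay close to parental replicate 1, and clone II replicate 1 lay at the level of parental replicate 2. The range of these medians among the GLI1 arrays, 0.57, was larger than the median difference between the groups.

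The genes shifted together from array to array. On the unnamed array, 34 of 36 lay below their own mean, on clone I 35 lay above it, on clone II replicate 2 also 35, and on parental replicate 1 33 lay below. Every one of the 36 was lower on the unnamed array than on clone I, by a median of 0.57 (0.12 to 1.39), while 44.1% of all tested probe sets were lower there, with a median of -0.07. Likewise 29 of 36 were lower on parental replicate 1 than on replicate 2 (51.4% of all tested), and 27 of 36 on clone II replicate 1 than on replicate 2 (47.9%).

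The ratio of 3′ to 5′ GAPDH probe signal, which grows as RNA is shortened, was higher on replicate 1 of each pair: 2.09 on the unnamed array against 1.45 on clone I, 7.52 against 1.39 in clone II, and 3.66 against 1.43 in parental cells. The medians of the proteasome genes on these arrays are given above, and the part of the ratio in them was not tested. The arrays of highest ratio in clone II and in parental cells were then left out, which leaves a single parental array. In that fit 23 of 36 genes were higher in GLI1 cells, with a median of 0.17. All tested probe sets had a median of -0.032.

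**Figure D2:**
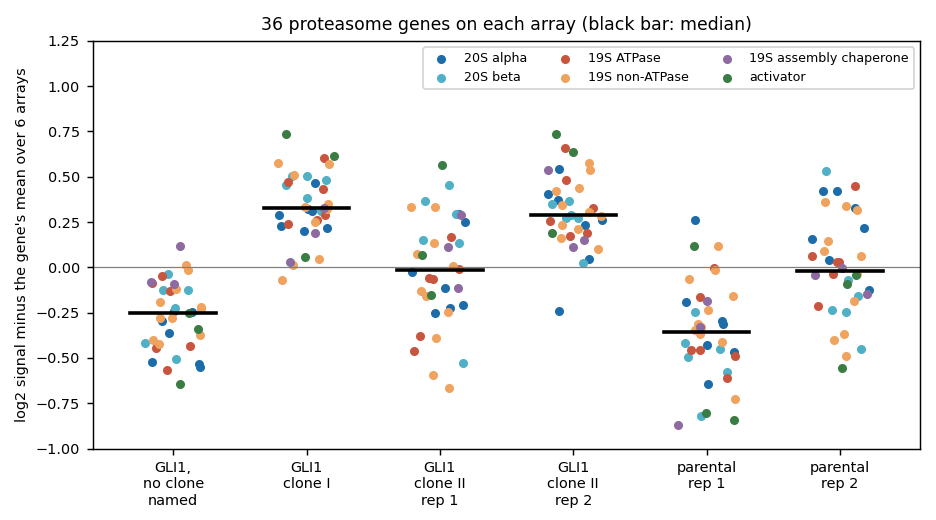
Log2 signal of each of the 36 proteasome genes minus its mean over the 6 arrays, 1 point per gene and array, coloured by role, with a black bar at the median of each array. The unnamed array and parental replicate 1 have nearly all points below 0, clone I and clone II replicate 2 nearly all above.

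The alpha ring of the core had the smallest median difference of the roles, 0.07 over its 7 genes, and 5 were positive. Psma3, which encodes an alpha-ring subunit, gave 12.64 on the unnamed array, 13.36 for clone I, 13.05 and 12.92 for clone II, and 13.42 and 13.58 for parental cells. All 4 GLI1 arrays lay below both parental arrays, by a narrow gap on clone I. The log2 difference was -0.51 (SE 0.22, adjusted p = 0.159, limma, 4 against 2 arrays as for every gene below). It was the only gene of the 36 (2.78%) lower on every GLI1 array, against 20.2% of all tested probe sets. A second probe set for this gene was not used, since its annotation also names Psma3l.

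Psma7, another alpha-ring gene, read 14.76 on the unnamed array, 15.32 for clone I, 15.30 and 15.24 for clone II, and 14.54 and 14.88 for parental cells. The 3 arrays of named clones were alike and above both parental arrays, and the unnamed array fell between the parental ones. The difference was 0.44 (SE 0.20, adjusted p = 0.187). For Psma1, Psma2, Psma4, Psma5 and Psma6 the differences were 0.07, -0.08, 0.06, 0.37 and 0.11 (adjusted p 0.48 to 0.914). The sign of each of these 5 turned under at least 1 of 15 alternatives.

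The beta ring, which holds the proteolytic sites, had positive differences throughout, none past the threshold. The median over its 6 measured genes was 0.48. Psmb7, the subunit with trypsin-like activity, gave 14.85 on the unnamed array, 15.43 for clone I, 15.11 and 15.25 for clone II, and 14.48 and 14.74 for parental cells. All GLI1 values exceeded both parental values. The group means were 15.16 ± 0.24 (SD, n = 4) and 14.61 ± 0.19 (SD, n = 2), a difference of 0.55 (SE 0.19, 95% interval 0.12 to 0.98, adjusted p = 0.0937), which did not pass.

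Psmb3, a beta-ring subunit without a cutting site, read 13.85 on the unnamed array, 14.77 for clone I, 14.63 and 14.63 for clone II, and 13.69 and 14.02 for parental cells. Clone I and clone II stood above the parental arrays, and the unnamed array lay between them. The difference was 0.61 (SE 0.26, adjusted p = 0.159). Psmb5, the subunit with chymotrypsin-like activity and the main target of proteasome inhibitor drugs, differed by 0.39 (SE 0.20, adjusted p = 0.233). Psmb2 differed by 0.53 (0.242), Psmb4 by 0.43 (0.164) and Psmb1 by 0.21 (0.768). Psmb4 had all 4 GLI1 arrays above both parental arrays. Psmb1 was the gene of widest spread between the parental arrays, 13.51 and 14.86, and its sign turned under 2 of 15 alternatives.

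The 6 ATPases of the 19S base thread the substrate into the core. Their median difference was 0.32, and 5 were positive, none with an unadjusted p under 0.05. Psmc4 gave 14.16 on the unnamed array, 14.72 for clone I, 14.18 and 14.42 for clone II, and 13.79 and 14.21 for parental cells. The groups overlapped, since parental replicate 2 stood above 2 of the GLI1 arrays. The difference was 0.37 (SE 0.21, adjusted p = 0.288).

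Psmc2 read 15.04, 15.35, 15.08 and 15.28 on the same GLI1 arrays in that order, and 14.63 and 15.15 on the parental arrays. Parental replicate 2 again lay above 2 GLI1 arrays. The difference was 0.30 (SE 0.19, adjusted p = 0.342). Psmc1 differed by -0.21 (adjusted p = 0.698), Psmc3 by 0.44 (0.397), Psmc5 by 0.34 (0.539) and Psmc6 by 0.16 (0.696). The other 2 tested probe sets of Psmc6 gave negative differences, -0.11 (0.794) and -0.38 (0.461).

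The 11 non-ATPase subunits of the cap divided. In the lid, Psmd11, Psmd12, Psmd14 and Psmd3 had differences of 0.45 to 0.68, and the remaining 7 genes lay between -0.22 and 0.28. Psmd11, a lid scaffold that clamps the cap onto the core, gave 14.92 on the unnamed array, 15.26 for clone I, 15.07 and 15.10 for clone II, and 14.70 and 14.57 for parental cells. Here too the groups did not overlap. Mean log2 signals were 15.09 ± 0.14 (SD, n = 4) and 14.64 ± 0.09 (SD, n = 2), a difference of 0.45 (SE 0.16, 95% interval 0.10 to 0.81, adjusted p = 0.0933), the smallest adjusted p of the 36 genes. The second tested probe set of Psmd11 gave 0.53 (adjusted p = 0.107).

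Psmd12, also a lid subunit, read 13.84 on the unnamed array, 14.47 for clone I, 14.45 and 14.46 for clone II, and 13.77 and 13.72 for parental cells. Clones I and II were nearly equal, and the unnamed array was only just above the parental arrays. The difference was 0.57 (SE 0.21, adjusted p = 0.115). Psmd14, the deubiquitinase of the lid, differed by 0.48 (SE 0.20, adjusted p = 0.155), and its 2 other tested probe sets by 0.78 (0.0761) and 0.47 (0.29). Psmd3 differed by 0.68 (SE 0.29, adjusted p = 0.16).

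The base scaffold genes Psmd1 and Psmd2 gave -0.15 (adjusted p = 0.718) and -0.00 (0.999), and Psmd4, a ubiquitin receptor, 0.05 (0.936). Differences for Psmd6, Psmd7, Psmd8 and Psmd13 were 0.12, -0.22, 0.01 and 0.28 (adjusted p 0.518 to 0.992). Of the 3 chaperones that help to assemble the base, Psmd5 gave 0.25 (0.331), Psmd9 0.65 (0.164) and Psmd10 0.28 (0.431). A second, dimmer probe set of Psmd9 gave the opposite sign, -0.37 (0.687). Psmd5 had all GLI1 arrays above both parental arrays, from 13.69 to 13.96 against 13.58 and 13.62. In all, 5 of 36 genes were separated upward in this way (Psmb4, Psmb7, Psmd11, Psmd12 and Psmd5), as were 3544 of the 18625 tested probe sets. With Psma3, 6 of 36 (16.7%) had all GLI1 arrays on one side of both parental arrays, against 39.2% of all tested probe sets. Both clone II arrays lay above both parental arrays for 15 of 36 genes, against 28.0%, and both other GLI1 arrays for 7, against 28.4%.

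Among the activators, the PA28 genes had larger differences than the PA200 gene. Psme2, which encodes PA28 beta, gave 14.31 on the unnamed array, 15.69 for clone I, 15.52 and 15.69 for clone II, and 14.11 and 14.40 for parental cells. The 3 arrays of named clones were over 1 log2 unit above both parental arrays, and the unnamed array lay between the parental ones. Mean log2 signals were 15.30 ± 0.67 (SD, n = 4) and 14.26 ± 0.21 (SD, n = 2), a difference of 1.04 or 2.06-fold (SE 0.37, 95% interval 0.21 to 1.87, adjusted p = 0.0958). It was the largest difference of the 36.

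Psme1, which encodes PA28 alpha, read 14.44 on the unnamed array, 15.31 for clone I, 14.54 and 15.33 for clone II, and 13.89 and 14.65 for parental cells. Clone II replicate 1 and the unnamed array lay between the parental arrays. The difference was 0.64 (SE 0.32, adjusted p = 0.225). A second, much dimmer probe set of Psme1 (mean log2 signal 8.41) gave 0.82 (adjusted p = 0.266). There every GLI1 array lay above both parental arrays, and the unnamed array was the highest at 9.26. Psme4, which encodes PA200, a nuclear activator, differed by -0.02 (adjusted p = 0.962) at its brightest probe set and by -0.06 (0.898) at another. Its dimmest tested probe set gave 11.40 to 11.58 on the 4 GLI1 arrays and 12.26 on both parental arrays, a fall of 0.76 on the log2 scale (SE 0.18, adjusted p = 0.0262). The probe sets of Psme4 therefore disagree, and it was the only one of 10 further tested probe sets of these genes to pass.

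**Figure D3:**
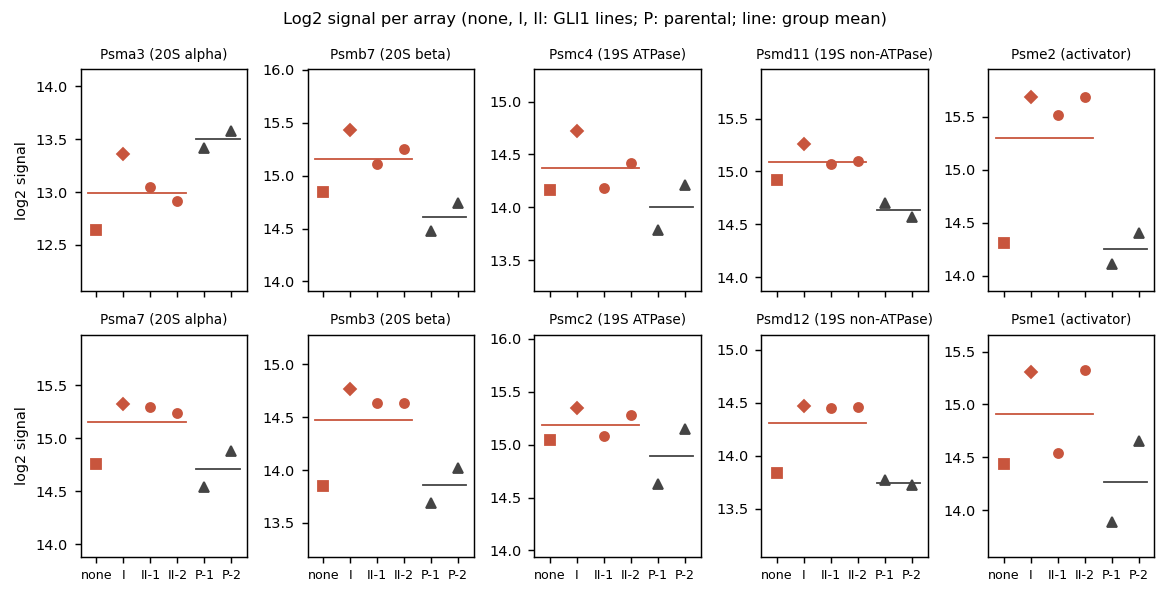
Log2 signal on each array for the 2 genes of smallest p in each role. GLI1 arrays are red (no clone named, clone I, clone II replicates 1 and 2), parental arrays grey, horizontal lines are group means, and each panel spans the same log2 range. Psmb7, Psmd11 and Psmd12 have every GLI1 array above both parental arrays, while the unnamed array falls to the parental level for Psma7, Psmb3 and Psme2.

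The count of genes that passed turned on the unnamed array. It was the lowest GLI1 array in the median of these genes (-0.25), so leaving it out raises their differences. Without it, 7 of 36 rose in GLI1 against parental cells (7.39% of all tested probe sets rose) and 0 fell (8.88%). In that fit 32 were positive and the median was 0.37. Those that rose were Psme2, by 2.60-fold (log2 1.38, SE 0.16, adjusted p = 0.00138), Psmb3 by 1.76-fold (0.0139), Psmb2 by 1.69-fold (0.0147), Psmd12 by 1.65-fold (0.0135), Psmb7 by 1.57-fold (0.0326), Psmd14 by 1.53-fold (0.0343) and Psma7 by 1.49-fold (0.0426). They comprise 3 beta-ring genes, 1 alpha-ring gene, 2 lid genes and 1 activator, and no ATPase. The SE of Psme2 was 0.37 with all arrays and 0.16 without the unnamed array. With all arrays, 738 of the 8189 probe sets at least as bright as the dimmest gene rose, against 1087 of 18625. The share of such bright probe sets that rose without the unnamed array was not counted. With clone I or either clone II array left out instead, 0 passed in either direction. Of all 18625 tested probe sets, 599 rose and 900 fell without clone I. Without clone II replicate 1, 824 rose and 1182 fell, and without replicate 2, 906 rose and 1127 fell. With the clone II arrays averaged into a single value per probe set, 0 of 36 genes passed, while 1032 of all tested probe sets rose and 1337 fell. Leaving out parental replicate 1 lowered the median to 0.13, and leaving out parental replicate 2 raised it to 0.43. These last fits leave a single parental array, so only their medians are given. With each array centred on its own median, a scaling under which all tested probe sets had a median of 0.165, 33 of 36 were positive with a median of 0.45, and 0 passed.

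**Figure D4:**
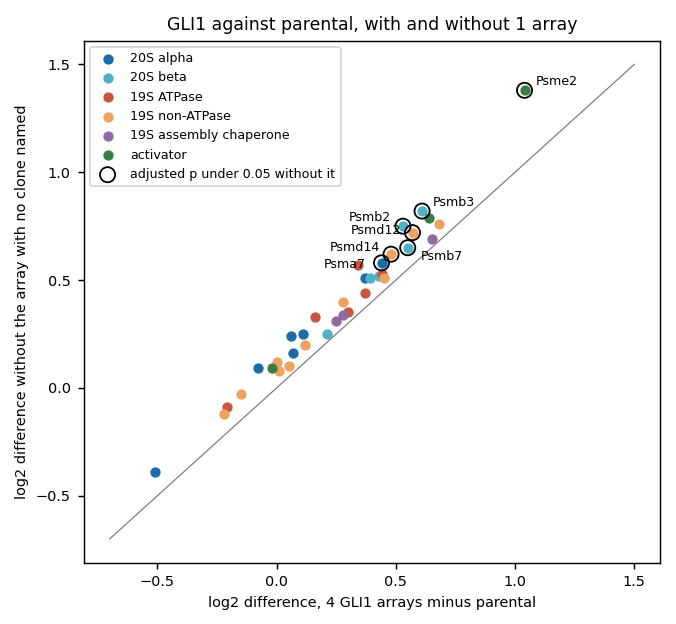
Log2 difference, GLI1 minus parental, with all 4 GLI1 arrays (horizontal axis) and without the unnamed array (vertical axis), 1 point per gene, coloured by role. Circles mark the 7 genes with an adjusted p under 0.05 without it. All 36 points lie above the diagonal line of equal values. This restates that the unnamed array was below the mean of the named-clone arrays for each gene.

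The GLI1 lines were also compared with parental cells apart. These comparisons share the parental arrays, so that their values are given side by side. In clone II, 32 of 36 genes were positive with a median of 0.31, and in the other GLI1 arrays 28 with a median of 0.31. Leaving out parental replicate 1 or clone II replicate 2 lowered the clone II median to 0.15 and 0.18, and leaving out parental replicate 2 raised it to 0.50. Without clone I the median of the other GLI1 arrays was -0.03. In each, 0 of 36 passed, where 3.99% of all tested probe sets rose and 5.74% fell in clone II, and 5.57% rose and 6.83% fell in the other GLI1 arrays. At an unadjusted p under 0.05, 8 genes were higher in clone II (12.1% of all tested probe sets) and 1 in the other arrays (13.6%). Psme2 differed by 1.35 in clone II (SE 0.39, adjusted p = 0.0679) and 0.74 in the other arrays (0.257), Psmd12 by 0.71 (0.0968) and 0.42 (0.288), and Psmb3 by 0.77 (0.146) and 0.45 (0.364). Leaving out either of the other GLI1 arrays leaves the clone II difference as it is and changes only the estimate of spread. Then 4 of 36 genes rose in clone II, Psme2, Psmb2, Psmb3 and Psmd12, and 0 fell. Without the unnamed array 4.84% of all tested probe sets rose and 6.67% fell, and without clone I 4.83% and 6.75%. Clone I alone against parental cells, with the unnamed array left out, gave 1 risen gene, Psme2 (3.67% of all tested rose), and 0 fallen (6.25%); that single array is assumed to vary like the others.

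Tested directly against the other GLI1 arrays, clone II gave a median difference of 0.07 over the 36 genes, 24 of them positive. Its direction turned on which of the other arrays was kept: without the unnamed array the median was -0.18 with 5 of 36 positive, and without clone I it was 0.36 with 35 of 36 positive. Without clone II replicate 1 it was 0.29, and without replicate 2 it was 0.02. With limma 0 passed in either direction and 0 had an unadjusted p under 0.05. Of all 18625 tested probe sets, 0.0161% rose and 0.113% fell. At an unadjusted p under 0.05, 678 (3.64%) were higher and 933 lower. Adjusted p-values of the 36 were 0.686 to 0.998. The 95% interval lay within a 2-fold difference for 29 of 36 genes (80.6%). It did so for 50.8% of all tested probe sets and 78.6% of those at least as bright, so the count is near that background. Psme2 had the largest difference, 0.60, with an interval from -0.29 to 1.49.

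Psmc3ip and Psme3ip1, the genes that match by name alone, differed by 0.56 (adjusted p = 0.264) and -0.01 (0.979) between GLI1 and parental cells.

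In cells exposed to interferon, the catalytic subunits of the immunoproteasome replace those of the beta ring. Of these, Psmb8 and Psmb9 had larger differences than any of the 36 genes. Psmb8, the inducible counterpart of Psmb5, gave 11.66 on the unnamed array, 12.94 for clone I, 13.45 and 13.79 for clone II, and 10.39 and 11.02 for parental cells. Every GLI1 array was above both parental arrays. It rose 4.77-fold (log2 2.25, SE 0.51, adjusted p = 0.0223). Psmb9, the counterpart of Psmb6, read 11.96, 13.38, 13.79 and 14.15 on the GLI1 arrays in the same order, and 10.59 and 11.25 on the parental arrays. It rose 5.29-fold (log2 2.40, SE 0.52, adjusted p = 0.0187).

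Psmb10, the counterpart of Psmb7, gave 9.41 on the unnamed array, 11.94 for clone I, 11.93 and 12.75 for clone II, and 10.46 and 10.87 for parental cells. The unnamed array was the lowest of the 6, and the difference was 0.84 (SE 0.75, adjusted p = 0.513). Without that array Psmb10 rose by 1.54 (adjusted p = 0.0119). In clone II against parental cells Psmb8 rose by 2.92 and Psmb9 by 3.05 on the log2 scale (adjusted p = 0.00408 and 0.00438), and in the other GLI1 arrays by 1.59 and 1.75 (0.0387 and 0.0347). Set directly against the other GLI1 arrays, clone II did not differ past the threshold for Psmb8 (1.32, adjusted p = 0.38) or Psmb9 (1.30, 0.422). Without parental replicate 1 the log2 differences of Psmb8 and Psmb9 between GLI1 and parental cells were 1.94 and 2.07 and did not pass (adjusted p = 0.197 and 0.179). Without parental replicate 2 they were 2.57 and 2.73 (0.0861 and 0.077). Without the arrays of highest GAPDH ratio in clone II and in parental cells they were 1.78 and 1.92. Each of these fits leaves a single parental array, so no spread among parental arrays enters them. Fewer probe sets of any kind passed in them than with all arrays. Without clone I, Psmb8 differed by 2.26 and did not pass (0.0554).

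**Figure D5:**
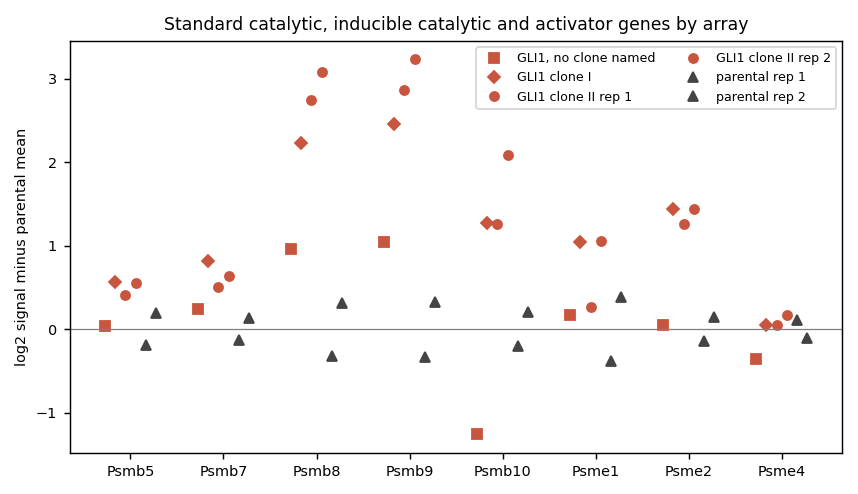
Log2 signal on each array minus the mean of the parental arrays, for standard catalytic genes (Psmb5, Psmb7), inducible catalytic genes (Psmb8, Psmb9, Psmb10) and activators (Psme1, Psme2, Psme4), with GLI1 arrays in red and parental arrays in grey. Psmb8 and Psmb9 reach about 3 units in clone II replicate 2, and the square of the unnamed array is the lowest GLI1 point for each gene.

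A wider list of 32 tested genes covered the immunoproteasome, assembly factors, receptors and deubiquitinases that bind the proteasome, shuttle factors, segregase genes, regulators and ubiquitin-activating enzymes. Of these, 2 rose (Psmb8 and Psmb9), 2 fell and 28 did not pass; 25 were positive, and the median was 0.31. Over all tested probe sets, as above, 5.84% rose, 7.25% fell and 50.3% were positive, so the counts of passed genes are near the background. Ubqln2, a shuttle factor that brings tagged proteins to the proteasome, fell by 0.73 (SE 0.20, adjusted p = 0.0432), with 14.20 on the unnamed array, 14.84 for clone I, 14.73 and 14.68 for clone II, and 15.40 and 15.29 for parental cells. Ngly1, the deglycosylase that helps to activate NFE2L1, fell by 0.78 (SE 0.21, adjusted p = 0.0441), with 12.67, 12.27, 12.85 and 12.73 on the GLI1 arrays in the same order, and 13.57 and 13.23 on the parental arrays. Both genes were below parental level on all 4 GLI1 arrays. With the clone II arrays averaged, Ubqln2 did not pass (limma adjusted p = 0.0549) and Ngly1 did (0.0469). The call of Ubqln2 was lost under 10 of 15 alternatives (adjusted p 0.0549 to 0.305) and that of Ngly1 under 8 (0.0553 to 0.326), median centring and the loss of either parental array among them for both.

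Pomp, which encodes the chaperone that assembles the core, gave 15.32 on the unnamed array, 16.08 for clone I, 16.04 and 15.85 for clone II, and 15.07 and 15.30 for parental cells. Its difference was 0.64 (SE 0.23, adjusted p = 0.0975), and the unnamed array was again the lowest GLI1 array. Nfe2l1 read 11.02 to 11.24 on the GLI1 arrays and 11.09 on both parental arrays (difference 0.02, 95% interval -0.44 to 0.47, adjusted p = 0.962). Its other tested probe sets gave -0.04 (0.95) and 0.30 (0.426), the latter with every GLI1 array above both parental arrays. Nfe2l2, whose product also binds the antioxidant response element, differed by 0.42 (0.325) and did not pass. Against parental cells it differed by 0.74 in clone II (0.0665) and by 0.10 in the other GLI1 arrays (0.816). Without the unnamed array the list held 7 risen genes and 2 fallen, where 7.39% of all tested probe sets rose and 8.88% fell. Without parental replicate 1 it held 0 and 0, where 228 of 18625 probe sets rose and 282 fell, and without parental replicate 2 also 0 and 0, where 276 rose and 421 fell.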

How the data were processed

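RNA from 4 GLI1-transformed and 2 parental RK3E cultures was measured on 1-colour arrays. The deposited intensity values are linear signals, 1 per probe set and array, which the authors made with MAS5 according to the submitters' processing notes. The software version, scaling target and genome build are not given in the sources used here; median signals ran from 568 to 696 per array. After a floor of 1, values were put on the log2 scale. Of 31099 probe sets 57 controls were left out, and 18625 with a mean log2 above the 40th percentile (8.33) were tested, including all 36 genes. limma 3.58.1 (R 4.3.3; lmFit, eBayes with an intensity trend) was run over all of them, with 4 residual degrees of freedom for GLI1 against parental and 3 for the 3-level model that separates clone II, and two-sided p-values were Benjamini-Hochberg adjusted over all tested probe sets. "Rose", "fell" and "passed" refer to an adjusted p below 0.05. Symbols came from the platform annotation, matched by identifier to RefSeq for 20758 of 20826 single-symbol probe sets.

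Arrays are given one by one for the genes of smallest unadjusted p in each role (2 per role; chaperones counted with the non-ATPase genes), and, from the wider list, for genes that passed and for Psmb10, Nfe2l1 and Pomp. Other genes are named with their differences. The genes, lists and alternatives were chosen with earlier results of these data known. The fitting procedure was checked on simulated data with independent noise for each probe set and array. That check does not cover genes that shift together from array to array, or arrays that share a clone. Alternatives were the scaling, offset, filter, intensity trend, probe set, replicate block and arrays used.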

Additional observations from a re-analysis of the deposited data

Results flagged for a closer look

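In the 4 GLI1 arrays, the array with no clone named stood apart from the other 3 for 5 genes of 43 examined. The gap was 0.85 to 0.959 of the whole GLI1 range. Chance flags about 1 independent group in 20. Since the genes shifted together on that array, this rate does not apply to their count. All 5 were low on that array. The log2 signal there was 14.76 for Psma7 (the nearest other GLI1 array was at 15.24), 13.85 for Psmb3 (14.63), 13.60 for Psmc6 (14.21), 13.84 for Psmd12 (14.45) and 14.31 for Psme2 (15.52).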

How the results depend on the processing

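Of the 36 genes, 21 kept a positive difference between GLI1 and parental cells under all 15 alternatives fitted gene by gene, 2 (Psma3 and Psmd7) stayed negative, and 9 passed under at least 1. For GLI1 against parental cells, 2 genes rose with the replicate number as a block (replicate block; Psme1 and Psmd3, where 6.39% of all tested probe sets rose), and leaving out 1 array gave 0 to 7 risen. For clone II against parental cells the counts were 2 with the block (5.99% of all tested rose) and 0 to 4 with an array left out, and for the other GLI1 arrays 2 with the block (8.18%) and 0 to 1. These counts with the block are near the background. Deviations of same-numbered arrays correlated at 0.104, 0.0681 and 0.321 between the groups, so the numbers were not taken as pairs. Counting every tested probe set of a gene gave 1 fallen gene, Psme4, in GLI1 and in the other GLI1 arrays against parental cells. Median differences for the other GLI1 arrays ran from -0.03 without clone I to 0.59 with an array left out. Without the array with no clone named, the difference of Nfe2l1 turned to -0.02; with single arrays left out it ran from -0.02 to 0.05.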
